A study of Homo sapiens with 4 samples.

Results

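The factors that build the small ribosomal subunit were followed through treatment of RCM‐1 cells with methylthioacetic acid (MTA). The set holds 43 genes, 34 for the processome that works in the nucleolus and 9 for late maturation, chosen by gene symbol. The members and their roles were chosen with earlier results of these data known. Of these, 42 were measured on the arrays, out of 10505 genes that were bright enough to be kept. DDX47 was left out, because its probe set also carries the symbol of a second gene.

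Ribosomal RNA of the small subunit is cut out of a long precursor that RNA polymerase I makes in the nucleolus. The small subunit processome, a large particle of proteins and the U3 small nucleolar RNA, forms on the precursor as it is made, folds it and opens the way for the first cuts. The particle then sheds most of its proteins, and a smaller group of factors takes the pre‐subunit through the nuclear pore and carries out the last cut and the quality checks in the cytoplasm. Growing and dividing cells need much of this machinery, and its genes are known as targets of growth‐promoting transcription factors.

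The RCM‐1 line comes from a well‐differentiated cancer of the human rectum. Nearly confluent cultures were given 1 mM MTA for 6, 12 or 18 h, were then kept in vehicle medium and were harvested at 24 h. The 0 h array, labelled as the control, served as the reference of every ratio. The time at which its culture was harvested is not given in the sources, so MTA and any difference in culture time or handling cannot be told apart in a ratio to 0 h. Vehicle medium held 0.1% acetonitrile, the solvent of MTA. Treated cells had spent 18, 12 and 6 h without MTA at harvest, so a longer treatment and a shorter time after removal cannot be told apart. There was 1 array for each time. No test was therefore made, and every value describes these 4 arrays. From RNA of a whole culture, fewer cells that express a gene and less RNA per cell cannot be told apart.

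The median signal of an array ran from 16.4 to 20.8. Over all kept genes the log2 ratio had a median of 0.11 on the 6 h array, −0.28 on the 12 h array and −0.47 on the 18 h array, and the members are read against these medians. The 3′ to 5′ signal ratio of GAPDH, a sign of RNA integrity, lay between 1.44 and 1.64. That of ACTB was 5.76, 4.76, 5.86 and 6.45 at 0, 6, 12 and 18 h, highest on the array where the members were lowest. The part of RNA quality in the results was not tested. Of 9 markers of intestinal epithelium all were kept, with EPCAM at 10546 and CDX2, the dimmest, at 55.9 at 0 h. Of 6 measured markers of stromal and immune cells only PECAM1 was kept, at 41.1. The others had 0 h signals of 31.1 (VIM), 19.8 (CD3E), 7.9 (PTPRC), 6.81 (COL3A1) and 1.74 (COL1A2). The only measure of error is the spread between probe sets. The ratio at 18 h differed between the 2 brightest probe sets of a gene with an SD of 0.48 (n = 4676 genes), and this says nothing of the variation between cultures.

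Small subunit assembly factors were lower after MTA treatment nearly throughout. The median member had a log2 ratio of −0.41 at 6 h, of −0.94 at 12 h and of −1.24 at 18 h (n = 42 genes), and the median share of the 0 h signal left at 18 h was 42.4%. At 18 h, 41 of 42 members had a ratio below 0, as had 78.3% of all kept genes. The same 41 were below the median of all genes, and RIOK3 was the exception. After quantile normalization AATF also stood above 0, at 0.09. With the mean of probe sets 39 of 42 were below 0, against 74.1% of all genes. On the second brightest probe set, dim ones included, 21 of 25 were below 0, against 80.4% of kept genes. Of these 25 members, 20 were below the median of all genes. A log2 ratio below −1, a halving of the signal, was seen in 30 members at 18 h (71.4%), where 15.8% of all kept genes had one. At 12 h the number was 18 (42.9%) against 6.29% of all genes, and at 6 h it was 3 (7.14%) against 0.476%. Below −1.5 there were 13 members at 18 h with 3.19% of all genes, 5 at 12 h with 0.942% and 0 at 6 h with 0.019%. Of the members, 6 lay within 0.05 of −1 at 18 h, and after median centring 14 were below −1, against 3.74% of all genes.

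**Figure D1:**
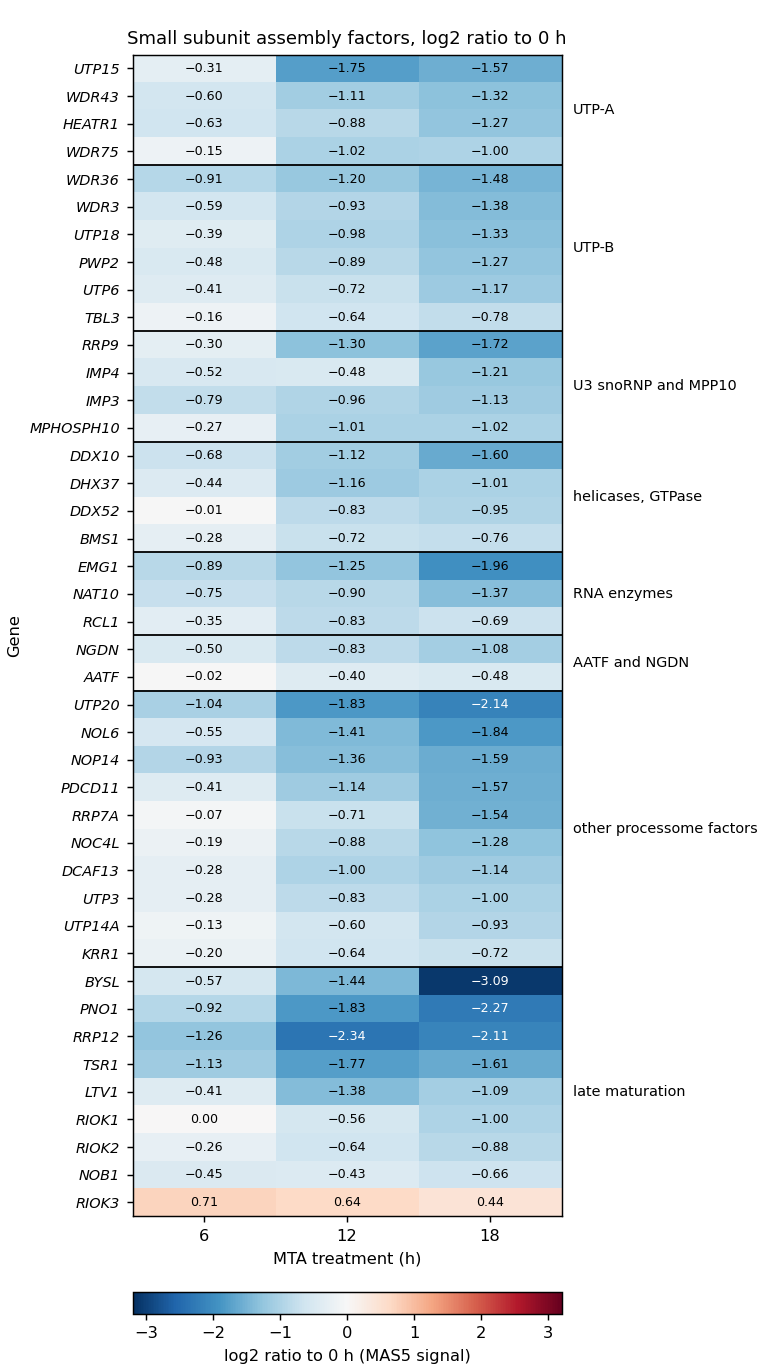
Log2 ratio of the signal at 6, 12 and 18 h of MTA to the 0 h array for the 42 measured members, grouped by role and ordered by the ratio at 18 h within a group. Blue cells are lower and red cells higher than at 0 h; nearly all cells are blue, BYSL is darkest at −3.09, and RIOK3 is the only red row.

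The distance from the other genes was already present on the 6 h array. The members' median minus the median of all genes was −0.52, −0.66 and −0.77 at 6, 12 and 18 h. Steps between the treated arrays do not use the 0 h array. From 6 to 18 h all 42 members were lower, and 31 lay below the median of all genes. The share of all genes that were lower in this step was not counted. The members' median log2 ratio was −0.75 against −0.58 for all genes, and 11 of 42 were below −1, against 12.4% of all genes. Between these treated arrays the members' median minus that of all genes was −0.17, so most of the distance at 18 h lay in the ratio of 6 h to 0 h, which rests on the 0 h array and its unknown harvest time. The signal was lower on each later array than on the one before it in 31 of 42 members and in 27.5% of all kept genes.

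UTP‐A is the first complex to bind the precursor, and its proteins are also known to aid transcription of the ribosomal RNA genes. Its 4 members had a median log2 ratio of −1.29 at 18 h. UTP15 had signals of 280.4, 225.5, 83.1 and 94.5 at 0, 6, 12 and 18 h, so it was lowest on the 12 h array. WDR75 had 479.8, 431.8, 237 and 240.6. HEATR1, the largest of these proteins, had log2 ratios from −1.52 to −1.17 at 18 h on its 4 kept probe sets.

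UTP‐B, a scaffold of WD‐repeat proteins, joins next. Its 6 members had a median of −1.30 at 18 h, and 5 were below −1. WDR36 had signals of 849.8, 451.5, 369 and 305 at 0, 6, 12 and 18 h. TBL3 had the highest ratio of them, with 225.5, 202.2, 144.3 and 131.4. WDR36 thus had a lower log2 ratio at 6 h, −0.91, than TBL3 at 18 h, −0.78. PWP2 had −1.27 on its brightest probe set but 0.14 on a dimmer kept one.

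The U3 particle and the MPP10 complex bring the guide RNA to the precursor. All 4 members were below −1 at 18 h, with a median of −1.17. RRP9, which binds the U3 RNA, had signals of 187.6, 151.9, 76 and 57.1 at 0, 6, 12 and 18 h. MPHOSPH10, the scaffold of the MPP10 complex, had 605.5, 501.7, 301.7 and 299.1. Its partners IMP3 and IMP4, which help U3 to pair with the precursor, had −1.13 and −1.21. IMP4 was alike on the 6 and 12 h arrays, at 594.1 and 609.

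Helicases and a GTPase rearrange the particle. DDX10, a DEAD‐box helicase, had the lowest ratio of the 4 measured, with signals of 767.4, 480.5, 354.2 and 253.1 at 0, 6, 12 and 18 h. BMS1, the GTPase, had 344.3, 284.2, 209.4 and 203.4. DDX10 was thus at 33% and BMS1 at 59.1% of the 0 h signal. The median of these genes hardly moved from 12 h (−0.97) to 18 h (−0.98). DHX37, the helicase that removes U3, had −1.16 at 12 h and −1.01 at 18 h, but −0.88 and −1.51 on its second kept probe set.

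Among the RNA‐modifying and related enzymes, EMG1, which methylates a pseudouridine of the small subunit RNA, had signals of 2631, 1415, 1105 and 674.6 at 0, 6, 12 and 18 h. RCL1, the partner of BMS1, had 318.9, 250.9, 179.9 and 197.1. NAT10, which acetylates cytidines in this RNA, had log2 ratios of −0.75, −0.90 and −1.37 at 6, 12 and 18 h. EMG1 was at 25.6% of its 0 h signal and RCL1 at 61.8%. AATF and NGDN act together in the processome and differed from each other. AATF had signals of 962.5, 951.7, 728.7 and 690.8 and stayed close to the median of all genes, at −0.48, the highest ratio of any processome factor at 18 h. NGDN had 822.4, 582.4, 464.2 and 389.4.

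The other processome factors held some of the lowest ratios. UTP20, a long scaffold protein, had signals of 449.1, 218, 126.4 and 101.9 at 0, 6, 12 and 18 h, a log2 ratio of −2.14 at 18 h. KRR1, an RNA‐binding protein, had the highest of these 10 ratios, with 641.6, 557, 410.8 and 388.9. UTP20 was below −1 at 6 h already, the only processome factor that was. NOL6 and RRP7A form a module together, and they had −1.84 and −1.54. NOP14 had −1.59 and its partner NOC4L −1.28. PDCD11, which is needed for both subunits, had −1.57. DCAF13 had −1.14 and UTP14A, which activates DHX37, −0.93. UTP3 lay next to the threshold, as its signal was 585.6 on the 0 h array and 292.6 on the 18 h array. NOL6 had a dim reading at 18 h, 39.9, where the filter kept mean signals down to 34.

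The late maturation factors were spread far more widely than the processome factors. BYSL, which accompanies the pre‐subunit towards export, had signals of 361.3, 242.7, 132.8 and 42.6 at 0, 6, 12 and 18 h. Its log2 ratio of −3.09 at 18 h, 11.8% of the 0 h signal, was the lowest of all members. The step from 12 to 18 h alone was −1.64, the lowest of the 42, and it rests on 1 probe set with a dim reading at 18 h. RRP12, an export factor, had 223, 92.8, 44.2 and 51.8, and so was lowest at 12 h, with a log2 ratio of −2.34.

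PNO1 and NOB1 act as partners. NOB1 is the nuclease that makes the last cut of the small subunit RNA, and PNO1 binds the RNA beside it. PNO1 had signals of 1190, 626.7, 334.5 and 247.4 at 0, 6, 12 and 18 h, and log2 ratios from −2.67 to −1.79 on its 3 kept probe sets at 18 h. NOB1 had 685.5, 500.4, 509.2 and 432.5, a log2 ratio of −0.66. The pair differed by more at 18 h than the spread between probe sets.

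TSR1, a GTPase‐like protein that blocks the site of joining to the large subunit, had signals of 696.3, 318.3, 203.7 and 228.9 at 0, 6, 12 and 18 h. It was 1 of 3 members below −1 at 6 h, with RRP12 and UTP20. Its 4 kept probe sets ran from −1.65 to −0.59 at 18 h. LTV1, an adaptor that leaves in the cytoplasm, had 470.9, 354.9, 181.5 and 221.6. A dimmer kept probe set of LTV1 had −0.08 at 18 h, against −1.09 on the brightest. TSR1, LTV1 and RRP12 had in common that the 18 h signal was above the 12 h signal, which was so for 7 of 42 members. The share of all genes that were higher in this step was not counted. The median log2 step was −0.25 for the members and −0.20 for all kept genes. The rise of the 3 genes holds for the brightest probe set of each. The second one of TSR1 went from 172.9 at 12 h to 118.4 at 18 h, and that of LTV1 from 35.4 to 33.9. That of RRP12, which was below the filter, went from 23.5 to 10.1.

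The RIO kinases, 3 relatives that act as ATPase switches on the cytoplasmic pre‐subunit, did not move alike. RIOK1 had signals of 356.6, 357.7, 241.6 and 178.5 at 0, 6, 12 and 18 h, so no difference was seen at 6 h. RIOK2 had 387.9, 323.4, 249.5 and 210.4. RIOK3 had 1028, 1677, 1602 and 1399, which was higher than at 0 h on every treated array. Its log2 ratios were 0.71, 0.64 and 0.44 at 6, 12 and 18 h, and the 18 h ratio was above 0 under each scaling tried. The 4 kept probe sets of RIOK3 ran from −0.11 to 1.16 at 18 h, all above the median of all genes, and 21.7% of all genes had a ratio above 0.

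**Figure D2:**
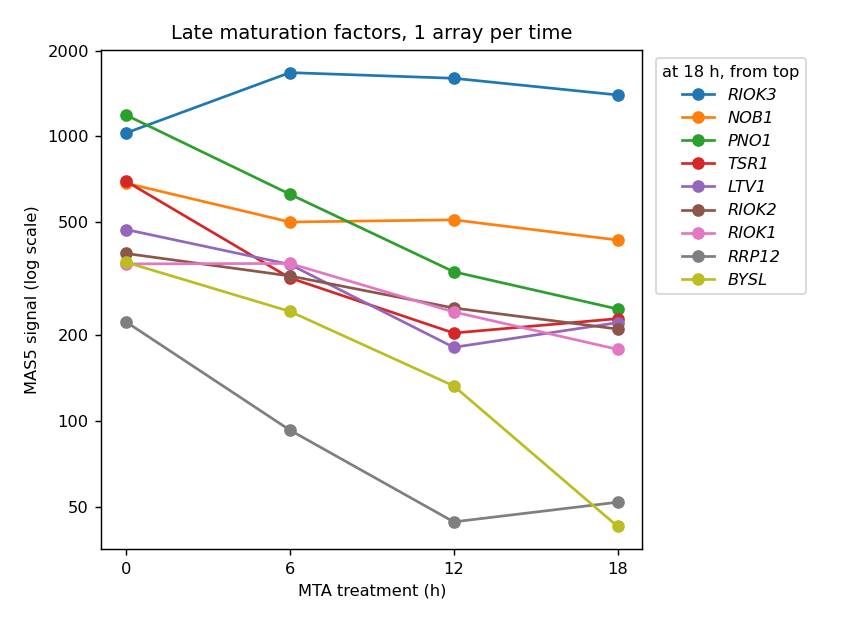
MAS5 signal on a log scale of the 9 late maturation factors against the hours of MTA treatment, with 1 point for each array and no error bar because there was 1 array per time. BYSL has the steepest last step, to 42.6, and RIOK3 lies above its 0 h value throughout; heights of different genes are not comparable.

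Nucleolar and late factors were then set against each other. The median of the late factors minus that of the processome factors was −0.05, −0.45 and 0.18 at 6, 12 and 18 h. These differences have no error, and the sign at each time turned with the choice of late factors. With RIOK3 left out, the difference at 18 h was −0.08. With BYSL, PNO1 and RRP12, which also join in the nucleus, left out, the difference was 0.07 at 6 h and 0.33 at 12 h. The spread differed more than the level. At 18 h the log2 ratios of the 9 late factors ran from −3.09 to 0.44 (SD 1.04 over genes), and those of the 33 processome factors from −2.14 to −0.48 (SD 0.38). The difference in spread was not tested.

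**Figure D3:**
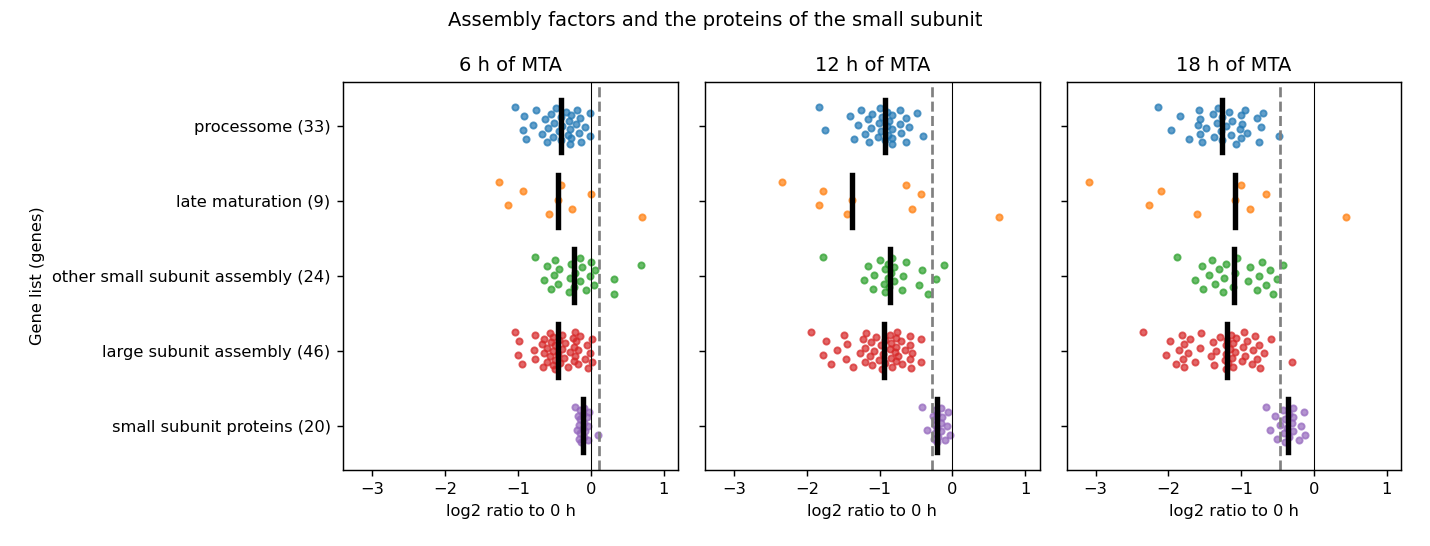
Log2 ratio to 0 h at 6, 12 and 18 h of MTA, where points are genes, thick bars mark list medians and the dashed line marks the median of all kept genes (0.11, −0.28 and −0.47). The 33 processome factors form a compact group left of the dashed line, the 9 late factors are scattered, and the proteins of the small subunit stay close to it.

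Other genes of the pathway were also lower than at 0 h in the median. Of 26 listed genes for other small subunit assembly factors 24 were kept, with a median of −1.10 at 18 h. Of these, 14 were below −1 at 18 h (58.3%), against 15.8% of all genes, and none was above 1. At 6 and 12 h their medians were −0.22 and −0.85. Below −1 were 0 and 5 of 24 (20.8% at 12 h), against 0.476% and 6.29% of all genes. These are smaller shares than those of the members. DIMT1, which methylates adenosines near the end of the small subunit RNA, had −1.88, ABT1 −1.64 and LYAR −1.54. TSR2 and TRMT112, at −0.51 and −0.43, had the highest ratios of these. For 46 kept of 52 listed factors of large subunit assembly the 6, 12 and 18 h medians were −0.45, −0.94 and −1.20, and 32 were below −1 at 18 h. URB2, RRS1 and MRTO4 had the lowest ratios among the large subunit factors, −2.34, −2.04 and −1.98, and DDX54 and RSL24D1 the highest, −0.59 and −0.30.

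Proteins of the finished small subunit, which the factors assemble, stood apart. Of 30 listed, 20 were measured under a single symbol. None of the 20 was below −1 at 18 h, against 15.8% of all genes, and their median was −0.36, above that of all genes by 0.11. The sign of that median turned with the scaling, to 0.09 after median centring, but the members' median stayed below it. After quantile normalization the proteins' median at 18 h was −0.03, below that of all genes, 0.01. At 6 h it was −0.11 against 0.11 for all genes as deposited, and all 20 lay below the median of all genes. Their place above all genes thus depended on time and scaling. FAU, RPS7 and RPS6 had the lowest ratios, −0.66, −0.61 and −0.53, and RPS4X and RPS18 the highest, −0.13 and −0.12. RPS10 had a signal of 17964 at 0 h, and the part of such high signals in these ratios was not tested.

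Several members had more than 1 kept probe set, and most of these gave the same direction. Among 17 such members the ratios at 18 h differed between the 2 brightest probe sets with an SD of 0.57. Of 27 kept probe sets other than the brightest, 23 were below 0, with a median of −0.91. Over all kept genes 78.3% were below 0 on the brightest probe set and 80.4% on the second. The count below 0 is thus near the share over all genes and says little of the members. WDR36 had −1.48 and −1.51, DCAF13 −1.14 and −1.13, and RIOK2 −0.88 and −0.94. RRP7A had −1.54 and −1.42, but 0.02 on its dimmest kept one. NOL6 had −2.94 on its second probe set. The other 25 members rest on 1 kept probe set each.

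**Figure D4:**
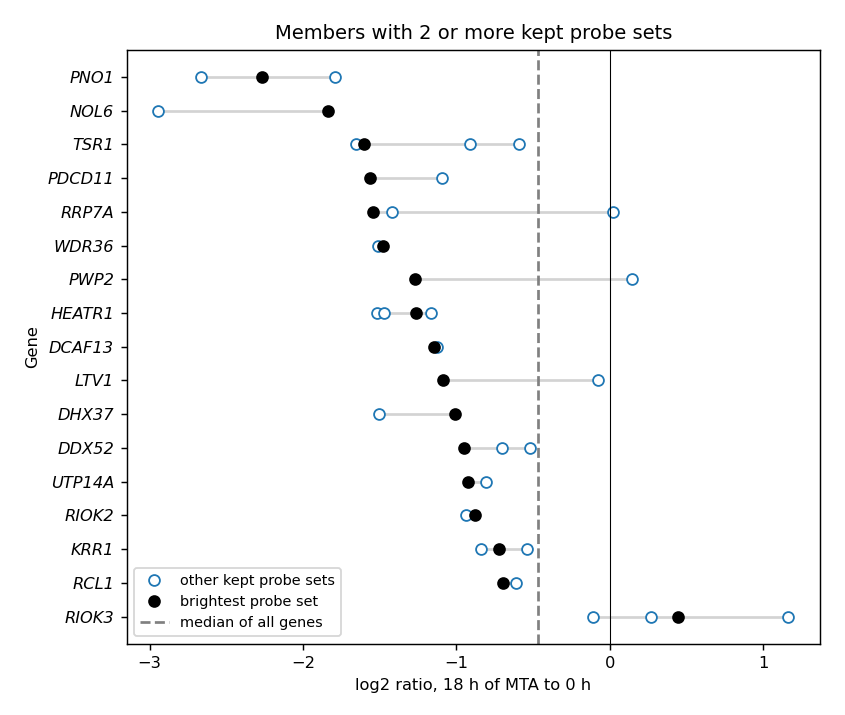
Log2 ratio of 18 h of MTA to 0 h on every kept probe set of the 17 members that have 2 or more; filled points are the brightest probe set of the gene and open points the others, and the dashed line is the median of all genes, −0.47. The range of a gene's points runs from 0.02 (DCAF13) to 1.56 (RRP7A), and RRP7A, PWP2, LTV1 and RIOK3 have a probe set near 0.

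The promoters of the members were searched for a shared sequence. The hexamer CACGTG is the canonical E‐box, which is bound by MYC with MAX, USF and other factors of the same family. It reads the same on both strands. RefSeq promoter windows (GRCh38.p14, from 250 bases before to 50 bases after the start) were found for 39 of 43 members. The hexamer was present for 16 of the 39 genes (41%), for 13.2% of the 8687 kept genes with a window and for 8.77% of all genes in the table. It was present for 13 of 31 processome genes and 3 of 8 late genes. For other small subunit assembly genes it was 8 of 20, for large subunit factors 14 of 44 and for proteins of the small subunit 2 of 24. A match is a description of the sequence and not evidence that a factor binds there.

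Most of the matches lay at or just after the start. Of 18 hexamers in the members' windows, 11 began in the first 50 transcribed bases (61.1%), against 10.6% of 1390 hexamers in the windows of kept genes. With the bases before the start alone, 6 of 39 members had one (15.4%), against 11.6% of kept genes. Most of the distance between members and other genes in this share thus lay in the first transcribed bases. With CATGTG and CACGCG also counted, on both strands, 24 members had a match (61.5%), against 38.4% of kept genes.

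The sites of 7 members with low ratios and of AATF, which had the highest ratio of the members with the hexamer, are shown with the hexamer in capitals, 5′ to 3′ on the strand of the gene. They lie at chr6:41921515-41921544 for BYSL, chr2:68157885-68157914 for PNO1, chr12:101280083-101280112 for UTP20, chr9:33473894-33473923 for NOL6, chr3:51941892-51941921 for RRP9, chr4:2963374-2963403 for NOP14, chr11:34105602-34105631 for NAT10 and chr17:36948785-36948814 for AATF. NOL6, RRP9 and NOP14 are on the minus strand and the others on the plus strand. The first base of the hexamer is at 29, 10, −10, 14, −5, 16, −15 and −157 in the same order, with the first transcribed base as 1.
BYSL: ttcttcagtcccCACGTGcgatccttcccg
PNO1: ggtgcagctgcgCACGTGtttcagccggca
UTP20: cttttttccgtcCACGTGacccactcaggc
NOL6: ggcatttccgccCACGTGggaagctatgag
RRP9: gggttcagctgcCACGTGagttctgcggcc
NOP14: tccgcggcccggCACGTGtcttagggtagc
NAT10: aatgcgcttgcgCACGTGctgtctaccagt
AATF: gacagaagcggtCACGTGccttggcgcgct

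Members with and without the hexamer overlapped widely in their ratios. The median at 18 h was −1.33 for 16 members with it (range −3.09 to −0.48) and −1.15 for 22 measured members without it (range −1.96 to 0.44). EMG1, at −1.96, had no match in its window, and RIOK3 had none either. Over all kept genes the medians were −0.55 with the hexamer (n = 1148) and −0.47 without it (n = 7539). Below −1 at 18 h were 13 of 16 members with the hexamer and 14 of 22 without it, and 19.6% and 15.6% of all kept genes with and without it. These differences were not tested.

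**Figure D5:**
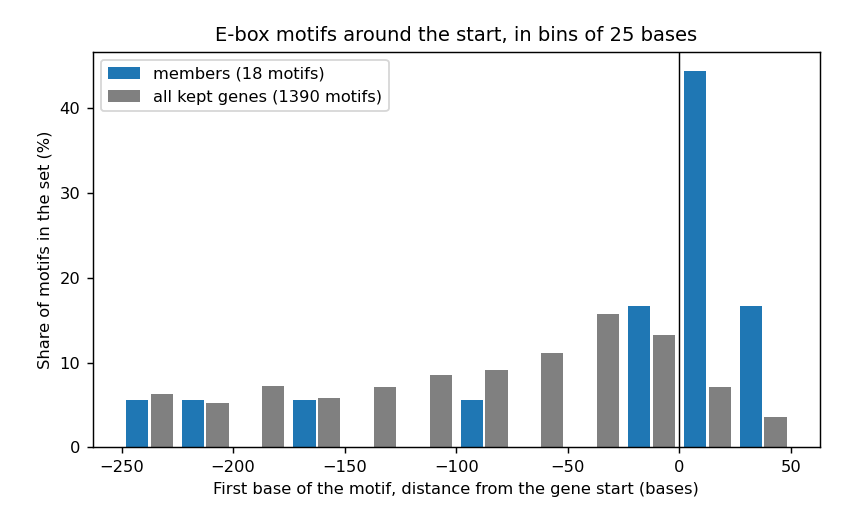
Share of the E‐box hexamers of each set that begin in each bin of 25 bases, against the distance from the gene start, for 18 hexamers of the members (blue) and 1390 of all kept genes (grey). In the first bin after the start lie 44.4% of the members' hexamers and 7.12% of those of all kept genes.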

How the data were processed

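RNA of RCM‐1 cells was labelled with the 3′ IVT Express kit and hybridised to 4 Affymetrix arrays, 1 per time. The authors deposited linear signal intensities, for which the submitters' processing notes name MAS5 and Affymetrix Expression Console. The sources used here give neither a version nor a target for scaling. Control probe sets (62) were left out, and probe sets were ranked by mean log2 signal and kept down to a mean signal of 34, so that their number equalled the detected number in the paper. Of 54613 probe sets 41091 had 1 gene symbol, 1801 several and 11721 none. Symbols came from the platform annotation of GEO and were updated by the RefSeq gene table of GRCh38.p14. The brightest probe set that carries the symbol alone stood for a gene. Log2 ratios to 0 h were taken with the scaling as deposited and no pseudocount, and a gene was counted as lower at a log2 ratio below −1, or −1.5.

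The members, their roles and the other lists were chosen with earlier results of these data known. Signals on every array are given for the 9 late factors, for the lowest and the highest member of each group at 18 h and for members above the median of all genes. Of the other lists, genes with the lowest and highest ratios at 18 h are named. Further members and markers were named after their values had been seen. Alternatives changed the scaling, the pseudocount, the probe set, the filter, the threshold, the reference array and the membership of the late group. Calculations were tested on simulated data. Python 3.11.15, NumPy 2.4.6, pandas 2.3.3 and matplotlib 3.10.9 were used. Protein sequences of the members were not analysed here.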

Additional observations from a re-analysis of the deposited data

How the results depend on the processing

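At 18 h the members' median stayed below that of all genes under every alternative of scaling, pseudocount, probe set and filter, by −0.91 to −0.61, and at 6 h by −0.55 to −0.31. No paired analysis was possible because each time has 1 array. A list value was counted as moved if it shifted by at least the SD between probe sets, 0.41 to 0.48 by time. A count was so if it changed by more than a fixed factor. The members' median at 18 h after median centring, −0.79 in place of −1.24, was thus not counted as moved. Of 349 recomputed values for lists and counts, 37 moved. Of these, 14 were counts below the threshold. At −1.5 in place of −1 they were 0, 5 and 13 at 6, 12 and 18 h (0.019%, 0.942% and 3.19% of all genes). At −2 they were 0, 1 and 4 (0%, 0.086% and 0.60%). After median centring they were 7, 10 and 14 (0.866%, 2.24% and 3.74% of all genes), and after quantile normalization 9 at 12 h and 12 at 18 h (2.16% and 3.84%). Division by the array median gave 9 at 6 h (2.09%). On the second brightest probe set, which 25 members have, 11 were below −1 at 12 h and 13 at 18 h (7.12% and 16.6% of all genes). These counts include probe sets below the filter and the shares do not, so they are not like for like. In 17 members the second probe set was kept. The cause of these shifts was not tested, apart from the threshold itself.

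After quantile normalization the medians at 18 h were −0.65 for all members, −0.71 for UTP‐A, −0.75 for UTP‐B, −0.59 for U3 and MPP10, −0.79 for the RNA enzymes, −0.20 for AATF and NGDN, −0.86 for the other processome factors and −0.53 for the late factors. They were −0.52 for other small subunit genes and −0.64 for large subunit factors. Ratios to the 6 h array had medians of −0.50 at 12 h and −0.75 at 18 h, against −0.39 and −0.58 for all genes. The range of −0.91 to −0.61 at 18 h does not include this reference. The difference of late and processome factors at 12 h, −0.45 in the report, turned sign. It was 0.37 with BYSL, PNO1 and RRP12 counted as processome factors and 0.33 without them. With the mean of all probe sets it was 0.27, with the second probe set 0.12 and with the stricter filter 0.26. The sign also turned at 6 and 18 h, by less than the spread between probe sets. At 6 h the difference was 0.07 without BYSL, PNO1 and RRP12 and 0.03 with the second probe set. At 18 h it was −0.08 without RIOK3 and −0.20 with the second probe set. The late factors' own median at 12 h was −0.69 with the mean of probe sets, −0.87 with the second probe set and −0.64 with the stricter filter. On the second probe set UTP‐B had −1.45 and the helicases −0.47 at 12 h. In the bases before the start alone, 6 members had the hexamer.

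The sign turned for single members on other probe sets, dim ones included. Only members whose ratio on the brightest probe set was below −1 at that time are named here. Smaller ratios turned as well. At 6 h 40 of 42 members were below 0 on the brightest probe set, against 37.7% of all genes. With the mean of probe sets it was 34 of 42 (37.6% of all genes), and on the second probe set 16 of 25 (40.9%). With the mean of probe sets DDX10 had 0.43 at 12 h and 0.46 at 18 h, and DCAF13 had 0.086 at 18 h. On the second probe set DDX10 had 1.98 and 2.51, PWP2 0.14 and NGDN 0.12. A second probe set gave no median for the RNA enzymes or for AATF and NGDN, with 1 gene each. With 1 array per time, precision is limited by the number of arrays.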

Other observations

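Some members share their start region with a gene that is read in the other direction, and these neighbours were looked at after the values had been seen. A kept gene on the opposite strand began within 1000 bases of 10 measured members. The median log2 ratio at 18 h was −1.57 for these members, −0.66 for their neighbours and −0.47 for all kept genes. In 9 of 10 pairs the member had the lower ratio. As 41 of 42 members lay below the median of all genes, most partners of any kind would have the higher ratio. The count of pairs therefore says nothing of shared start regions. BYSL had −3.09 and MED20, a Mediator subunit that begins 556 bases away, −0.63, as its signal was 362.3 on the 0 h array and 234.5 on the 18 h array. PNO1 had −2.27 and DNAAF10, a dynein assembly factor, −0.77. EMG1 had −1.96 and PHB2, a mitochondrial prohibitin 160 bases away, −0.74. UTP15 had −1.57 and ANKRA2, 104 bases away, −0.26. UTP18 had −1.33 and MBTD1, a chromatin protein, 0.18. NOC4L was the exception. It had −1.28, while DDX51, a helicase of large subunit assembly 138 bases away, had −1.79, the only neighbour below −1. Of all kept genes, 15.8% were below −1 at 18 h.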
